A study of Mus musculus with 6 samples.

Results

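The transcripts of 10 nuclear genes for membrane scaffolds of mitochondria were compared between wild-type (WT) and Yme1l-/- mouse embryonic fibroblasts (MEFs). They were the MICOS genes Immt, Chchd3, Chchd6, Apoo and Apool, the genes Samm50 and Dnajc11 of the bridge to the outer membrane, the prohibitin genes Phb and Phb2, and Stoml2, which encodes SLP2. The genes were taken by name as members of these complexes, with earlier results of these data known. Each was found as a locus of its own, 10 of the 51499 loci in the count table, and all 10 passed the filter on low counts that left 13867 loci. Poly(A) RNA was sequenced from 6 cultures, 3 with the genotype Yme1l fl/fl (the WT group) and 3 with the genotype Yme1l-/-. All were fibroblasts immortalized with the SV40 large T antigen. By the study's methods, both genotypes came from floxed cells exposed to Cre recombinase and were obtained as clones, so the WT cells carry loxP sites as well. How many clones stand behind the cultures of a genotype is not given in the sources used here, so the p-values measure the spread between cultures, and differences between clones cannot be told apart from the genotype. The libraries held 33180867 to 49351107 counted fragments, with both largest totals in Yme1l-/- cultures.

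MICOS is the protein complex of the inner mitochondrial membrane that holds the necks of cristae, the crista junctions, in shape. Its core subunit MIC60 binds SAM50 in the outer membrane, and the MICOS and SAM proteins together form a bridge between the membranes. Prohibitins and SLP2 belong to the SPFH protein family, whose members form large rings or assemblies in membranes. They organize proteins and lipids of the inner membrane, among them proteases. SLP2 anchors YME1L, the ATP-dependent protease whose gene was deleted in these cells, in a complex with the rhomboid protease PARL. YME1L also processes OPA1, a GTPase that shapes cristae together with MICOS.

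The targeted gene went in the direction of the labels. Yme1l1 (the symbol in the deposited tables) had 183 to 192 CPM (the fragments of the gene scaled to library size) in WT and 37.9 to 40.6 CPM in Yme1l-/-, 20.7% of the WT mean. Of 12 fibroblast markers, 10 were tested, and their list summed to 11233 to 11817 CPM in WT libraries and 6878 to 7388 CPM in Yme1l-/- libraries, with 1 marker called higher and 8 lower. The fibroblast markers Lum and Thy1 were close to absent, with at most 11 and 6 fragments in a library. Markers of epithelial cells summed to 32.9 to 34.9 CPM in WT and 0.334 to 0.686 CPM in Yme1l-/-, and those of neural cells to 22.5 to 27.4 and 6.23 to 8.30 CPM. The sums of the other cell types were at most 3.93 CPM in any library, and higher in Yme1l-/-. They were 0.888 to 1.44 CPM in WT and 1.67 to 2.00 CPM in Yme1l-/- for endothelial cells. For immune cells they were 1.68 to 1.87 and 3.49 to 3.93 CPM, and for skeletal muscle 0.429 to 0.604 and 2.23 to 3.28 CPM. The part of these shifts in the results below was not tested, and in bulk RNA fewer cells of a type and less RNA per cell cannot be told apart.

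Most of the scaffold transcripts were moderately more abundant in Yme1l-/- MEFs. At an adjusted p under 0.05 (edgeR, quasi-likelihood test), 7 of the 10 were higher, 2 were lower and 1 was not called. Samm50 rose most, 1.75-fold, followed by Chchd6 with 1.67-fold and Immt with 1.44-fold, whereas Stoml2 fell to 0.85-fold and Dnajc11 to 0.91-fold. The calls and the order depended on how chromosomes were handled. With the median change of each chromosome removed, 5 genes were higher, 1 was lower and 4 were not called (62.8% of all loci were called in that fit, 31.1% higher and 31.7% lower), and the largest log2 fold changes were those of Apoo (0.45) and Chchd6 (0.40), followed by Apool (0.22), Samm50 (0.21) and Immt (0.19). Calls were frequent in this comparison. Of all loci tested, 67.7% were called, 33.6% as higher and 34.1% as lower, against 9, 7 and 2 of the 10 scaffold genes. The median log2 fold change (Yme1l-/- over WT) of the 10 genes was 0.27, and that of all loci was -0.00411. None of the 10 changed more than 2-fold, which 18.1% of all loci did. The libraries of the genotypes did not overlap in CPM for 9 of the 10 genes and for 71.9% of all loci. The Yme1l-/- values were entirely above the WT values for 7 of the genes (35.9% of all loci) and entirely below for 2 (36.0% of all loci).

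**Figure D1:**
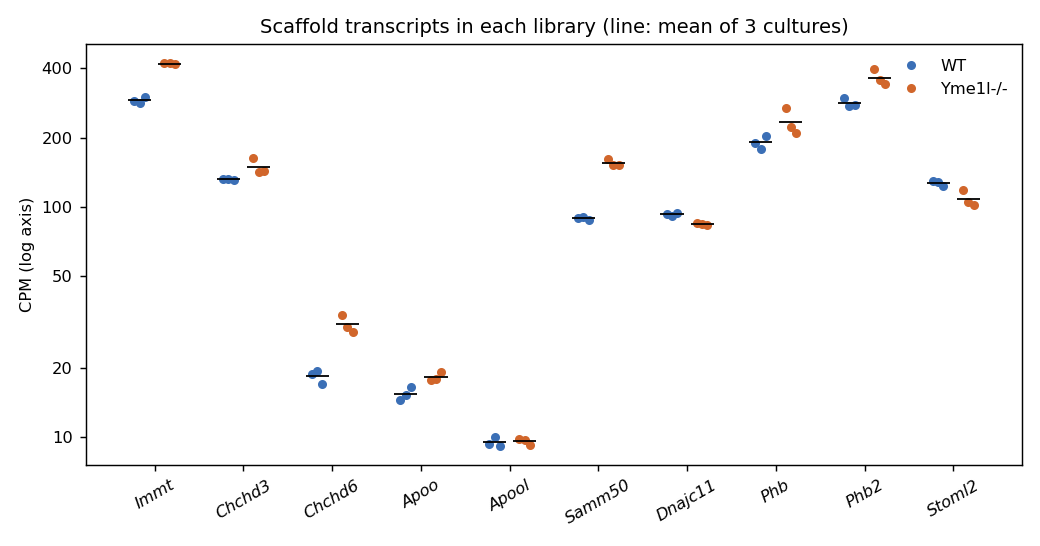
Each point is the CPM of a library (log axis) for the 10 scaffold genes, with WT in blue, Yme1l-/- in orange and a black line at the mean of 3 cultures. Immt lies at 283 to 300.3 CPM in WT and 417 to 422 CPM in Yme1l-/-, the groups of Apool overlap, and those of Dnajc11 and Stoml2 are lower in Yme1l-/-.

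The sequences before the start sites are shown for the MICOS core gene Immt, for the paralogues Chchd3 and Chchd6, whose transcripts rose by different amounts, and for Samm50, which had the largest increase. They are the 250 bases before the RefSeq gene start (build GRCm38.p6), written 5′ to 3′ on the strand of the gene, and RefSeq entries matched 9 of the 10 genes. Capitals mark matches to 8 short motifs searched on either strand: the ETS core CCGGAAG, the CCAAT box CCAAT, the SP/KLF box GGGCGG, the E-box CACGTG, the NRF1 motif, YY1 (AAGATGGCG), the composite element of ATF4 and C/EBP (TGATGNAA) and the interferon-stimulated response element. No match overlapped one of another motif in these windows.
Immt, chr6:71831070-71831319 (+ strand): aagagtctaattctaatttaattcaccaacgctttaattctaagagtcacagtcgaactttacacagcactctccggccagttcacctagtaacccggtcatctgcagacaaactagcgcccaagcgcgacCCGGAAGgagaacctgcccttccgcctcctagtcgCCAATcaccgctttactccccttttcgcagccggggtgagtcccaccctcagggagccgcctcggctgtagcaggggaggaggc
Chchd3, chr6:33060261-33060510 (- strand): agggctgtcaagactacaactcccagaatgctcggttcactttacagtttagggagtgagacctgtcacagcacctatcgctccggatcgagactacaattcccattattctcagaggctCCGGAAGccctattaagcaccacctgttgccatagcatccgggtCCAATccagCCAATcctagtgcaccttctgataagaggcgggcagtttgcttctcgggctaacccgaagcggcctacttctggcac
Chchd6, chr6:89595653-89595902 (- strand): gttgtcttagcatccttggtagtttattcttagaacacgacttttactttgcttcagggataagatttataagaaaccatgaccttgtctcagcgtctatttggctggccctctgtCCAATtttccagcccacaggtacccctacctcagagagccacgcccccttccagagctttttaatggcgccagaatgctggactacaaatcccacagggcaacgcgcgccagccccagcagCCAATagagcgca
Samm50, chr15:84191990-84192239 (+ strand): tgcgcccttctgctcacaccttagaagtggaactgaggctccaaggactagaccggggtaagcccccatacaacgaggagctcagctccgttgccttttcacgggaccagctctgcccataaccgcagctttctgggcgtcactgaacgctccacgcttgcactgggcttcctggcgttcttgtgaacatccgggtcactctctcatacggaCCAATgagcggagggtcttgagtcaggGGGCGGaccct
The ETS core was found in the Immt window at -119 to -113 and in the Chchd3 window at -130 to -124, counted from the gene start, and the windows of Phb2 and Stoml2 held it as well. The Stoml2 window lies inside the GENCODE span of the gene, which starts farther upstream than the RefSeq entry, and the bases just after the RefSeq start of Phb2 were in none of its GENCODE transcripts, so these windows are less certain as promoters. That made 4 of 9 genes, and 6.91% of 32851 RefSeq windows of the same length held it. The CCAAT box was found for 6 of the 9 genes (Immt, Chchd3, Chchd6, Apool, Samm50 and Phb) and in 33.8% of all windows. Chchd6 had it at -134 to -130 and again at -13 to -9, and no ETS core. The SP/KLF box was found for 4 of the 9 genes and in 32.7% of all windows, and the E-box for Phb and in 6.02% of all windows. Matches were thus found in the windows of genes that rose, of Apool, which was not called, and of Stoml2, which fell. Matches to NRF1, YY1, the ATF4 and C/EBP element and the interferon element were in 3.74%, 0.606%, 3.45% and 0.685% of all windows and in none of the 9 genes' windows. The windows of all genes include those of genes without protein, and a match is a description of letters and not of a bound site.

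Among the MICOS genes, 4 of 5 were higher in Yme1l-/- and Apool was not called. After removal of chromosome medians, Apool was called higher and Chchd3 lower, and the other MICOS genes were still called higher. Immt (chromosome 6, 71831331 to 71877388, mm10), which encodes the core subunit MIC60, had 289.8, 283 and 300.3 CPM in the WT cultures and 422, 421 and 417 CPM in the Yme1l-/- cultures. The groups lay far apart relative to their spread, with a coefficient of variation of 0.695% among the Yme1l-/- cultures. On the log2 scale the change was 0.53 ± 0.04 (SE; edgeR adjusted p 5.7e-07), and 0.19 with chromosome medians removed.

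Chchd3 and Chchd6 encode the paralogous subunits MIC19 and MIC25, small coiled-coil-helix proteins that bind MIC60. Chchd3 (chromosome 6, 32790976 to 33060260) had 132, 133 and 131 CPM in WT and 164, 142 and 143 CPM in Yme1l-/-. The first Yme1l-/- culture was well above the others, and all were above WT. It rose by 0.18 ± 0.06 on the log2 scale (SE; edgeR adjusted p 0.0157), and by 0.11 without Yme1l-/- replicate 1 (adjusted p 0.0302). Its direction turned with chromosome medians removed, to -0.16 (edgeR adjusted p 0.032). Chchd6 (chromosome 6, 89383146 to 89595652) had 18.9, 19.5 and 17.1 CPM in WT and 34.1, 30.2 and 28.8 CPM in Yme1l-/-, so that every Yme1l-/- culture was above every WT culture. Its log2 fold change was 0.74 ± 0.08 (SE; edgeR adjusted p 6.2e-06), and 0.40 with chromosome medians removed.

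Apoo and Apool encode MIC26 and MIC27, the apolipoprotein O-like subunits that bind cardiolipin and sit in the part of MICOS that forms crista junctions. Both genes lie on the X chromosome. Apoo (94367117 to 94417093) had 14.6, 15.3 and 16.6 CPM in WT and 17.8, 17.9 and 19.2 CPM in Yme1l-/-. The groups did not overlap, but the gap between them was narrower than the range within WT. The log2 fold change of 0.24 ± 0.07 (SE) had an edgeR adjusted p of 0.0119. The call was lost without WT replicate 1 (0.20, adjusted p 0.0527) and without Yme1l-/- replicate 3 (0.21, adjusted p 0.0607), at log2 fold changes close to that with all cultures. A pseudogene, Apoo-ps, had 17 to 32 fragments per library where Apoo had 483 to 978, and fragments can be exchanged between such copies. Apool (112311334 to 112372755) had 9.33, 9.99 and 9.19 CPM in WT and 9.83, 9.70 and 9.26 CPM in Yme1l-/-. The groups overlapped, and the log2 fold change was 0.01, with a 95% confidence interval from -0.17 to 0.20 and an edgeR adjusted p of 0.895, whereas it was 0.22 (adjusted p 0.0385) with chromosome medians removed. At 300 to 489 fragments per library it was the gene of the 10 with the fewest fragments.

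The bridge genes went in opposite directions. Samm50 (chromosome 15, 84192241 to 84217267) encodes SAM50, the channel that inserts β-barrel proteins into the outer membrane and contacts MIC60. It had 89.6, 90.8 and 87.9 CPM in WT and 162, 153 and 153 CPM in Yme1l-/-. The gap between the groups was many times the spread within either, with a log2 fold change of 0.80 ± 0.04 (SE) and an edgeR adjusted p of 3.7e-08. The log2 fold change was 0.21 with chromosome medians removed (adjusted p 0.00153). Dnajc11 (chromosome 4, 151933691 to 151982137), which encodes a J-domain protein found with MICOS and the SAM complex, had 93.4, 91.8 and 94.3 CPM in WT and 85.1, 84.2 and 83.7 CPM in Yme1l-/-. All Yme1l-/- cultures were lower, by a small amount. On the log2 scale the change was -0.14 ± 0.04 (SE; edgeR adjusted p 0.00984), and under upper-quartile scaling it was -0.08 with an adjusted p of 0.0972, so that call was lost. It was also lost with chromosome medians removed (-0.05, adjusted p 0.364).

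Both prohibitin genes were higher, and neither was called with chromosome medians removed (Phb -0.07, edgeR adjusted p 0.555, and Phb2 0.02, adjusted p 0.75). Their products alternate in the ring that prohibitins form in the inner membrane. Phb2 (chromosome 6, 124712336 to 124716950) had 297, 276 and 277 CPM in WT and 398, 355 and 342 CPM in Yme1l-/-. The groups did not overlap, and the increase was 0.36 ± 0.06 on the log2 scale (SE; edgeR adjusted p 0.00021). Phb (chromosome 11, 95666957 to 95680773) had 189, 179.6 and 204 CPM in WT and 269, 223 and 209 CPM in Yme1l-/-. The lowest Yme1l-/- culture was just above the highest WT culture, and the spread in Yme1l-/-, 13.4% of the mean, was the widest among the 10 genes. The log2 fold change of 0.29 ± 0.09 (SE) had an edgeR adjusted p of 0.0197. This call was lost without WT replicate 1 (0.28, adjusted p 0.0623) or WT replicate 2 (0.25, adjusted p 0.0592), with the replicate number as a block (0.29, adjusted p 0.0796) and without the filter on low counts (0.29, adjusted p 0.0623), with little change in the log2 fold change. Without Yme1l-/- replicate 1 the log2 fold change was 0.18.

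Stoml2 (chromosome 4, 43027690 to 43031710) was, with Dnajc11, one of the scaffold genes called lower. It had 130.4, 129 and 123 CPM in WT and 119, 105 and 102 CPM in Yme1l-/-. All Yme1l-/- cultures were below WT, the first of them only narrowly. Its log2 fold change was -0.23 ± 0.06 (SE; edgeR adjusted p 0.00563), and -0.30 without Yme1l-/- replicate 1. The call was lost with chromosome medians removed (-0.13, adjusted p 0.079).

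Yme1l-/- replicate 1 gave the highest CPM of its genotype for 9 of the 10 genes, all but Apoo, and for 38.4% of all loci tested. It was also the Yme1l-/- library with the fewest fragments, 34624075. Without this culture 7 of the genes were still called higher and 2 lower, and their median log2 fold change was 0.22.

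The position of the genes was considered next, since the median log2 fold change differed between chromosomes. Whether these shifts span whole chromosomes or parts of them was not tested. Of the 10 genes 4 lie on chromosome 6, which holds 5.03% of the loci tested, and all 4 were higher. The 697 tested loci of chromosome 6 had a median log2 fold change of 0.34. The medians were 0.59 for chromosome 15 (Samm50), 0.36 for chromosome 11 (Phb), -0.10 for chromosome 4 (Dnajc11 and Stoml2) and -0.21 for the X chromosome (Apoo and Apool). Within their chromosomes, Apoo was above 83.3% of the loci, Chchd6 above 77.4%, Apool above 71.9%, Immt above 64.2% and Samm50 above 64.0%. Phb2 was above 52.2%, Dnajc11 above 46.0%, Phb above 44.4%, Stoml2 above 37.4% and Chchd3 above 35.8%.

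In the fit with the median of each chromosome removed, Immt (log2 fold change 0.19 ± 0.04, SE), Chchd6 (0.40 ± 0.08, SE), Samm50 (0.21 ± 0.04, SE) and Apoo (0.45 ± 0.07, SE) kept their calls, with edgeR adjusted p-values of 0.00201, 0.00087, 0.00153 and 0.00025. Apool became higher, at 0.22 ± 0.08 (SE, edgeR adjusted p 0.0385). Chchd3 changed sign, to -0.16 ± 0.06 (SE), and was called lower with an edgeR adjusted p of 0.032. The prohibitin genes Phb2, at 0.02, and Phb, at -0.07, were not called. Stoml2 was at -0.13 (edgeR adjusted p 0.079) and Dnajc11 at -0.05 (0.364). In this fit the changes of Phb, Phb2, Stoml2 and Dnajc11 could thus not be told from the median change of their chromosomes. Those of Immt, Chchd6 and Samm50 were called larger than that median, in a fit that called 62.8% of all loci. Within their chromosomes these 3 genes were above 64.2%, 77.4% and 64.0% of the loci. Whether the clones differ in chromosome copy number was not tested.

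**Figure D2:**
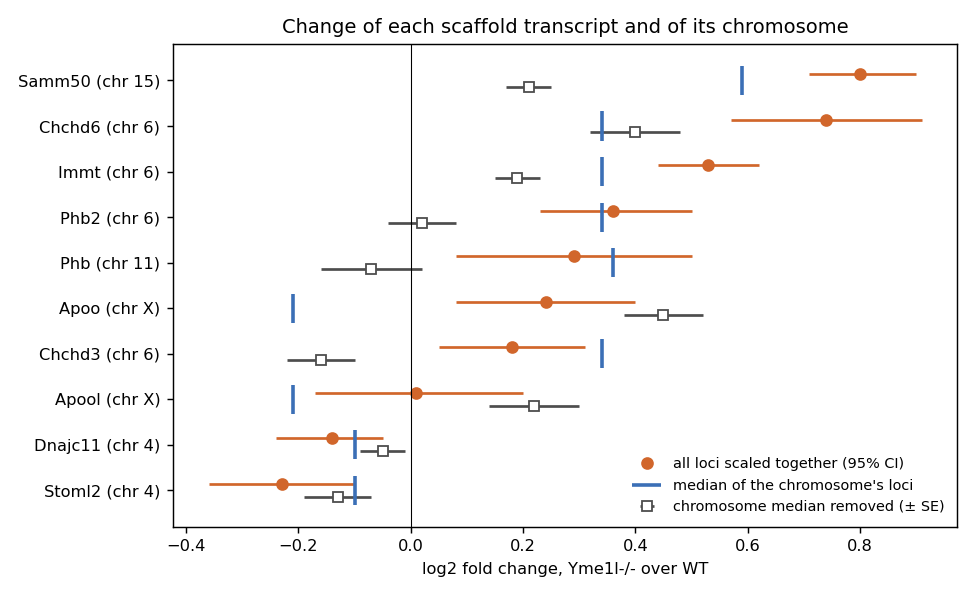
The log2 fold change of each scaffold gene (orange, with its 95% confidence interval), the median of its chromosome (blue line) and the value after that median was removed (open square, with SE). Samm50 goes from 0.80 to 0.21 and Immt from 0.53 to 0.19, Phb2 ends at 0.02, Chchd3 moves to -0.16, and Apoo rises to 0.45.

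The nearest surroundings were also described, as loci tested within 1 Mb of each gene. Around Immt were 27 such loci with a median log2 fold change of 0.43, 17 called higher by edgeR and 10 not called. Around Samm50 were 19 with a median of 0.58, and 13 were higher and 3 lower. Around Phb2 were 38 with a median of 0.54, of which 31 were higher and 3 lower. Each of these neighbourhoods thus moved the way of its scaffold gene. Around Chchd6 the median of 15 loci was 0.49, and Chchd3 had just 2 tested neighbours, neither of them called. Around Phb the median of 34 loci was 0.89. Of these, 11 were loci of the Hoxb cluster, which encodes transcription factors of body patterning, with log2 fold changes from 3.38 to 8.78, and the median of the other 23 loci was 0.43. The neighbours of Stoml2 did not share its decrease, since the median of 24 loci was 0.12, with 9 higher and 6 lower. Its adjacent protein-coding genes, Pigo and Fam214b (named after their values were seen), had log2 fold changes of 0.53 and 0.56. Around Apoo the median of 13 loci was -0.04, with 3 higher and 3 lower, and Apool had 3 tested neighbours, 1 higher and 2 lower. Around Dnajc11 the median of 20 loci was -0.12, close to the value of the gene itself, with 3 higher and 8 lower.

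**Figure D3:**
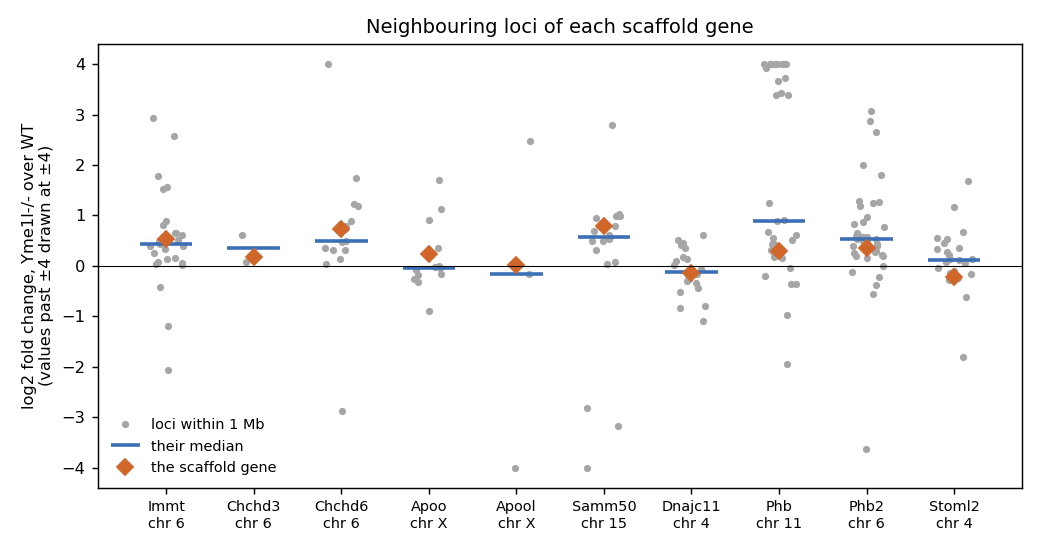
Grey points are the log2 fold changes of tested loci within 1 Mb of each scaffold gene (values past 4 in either direction are drawn at 4), blue lines their medians and orange diamonds the scaffold genes. Immt, Samm50 and Phb2 sit among neighbours with medians of 0.43, 0.58 and 0.54, the group at the top over Phb holds the Hoxb loci, and Stoml2 at -0.23 lies under the median of 0.12.

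Partner genes were then compared within each library, as the log2 ratio of their counts, which does not depend on the scaling of libraries. For 5 pairs the difference between the genotypes was tested by an exact permutation test (two-sided), which cannot go below p = 0.1 with 3 cultures against 3. For Phb to Phb2, the prohibitin pair, the log2 ratio was -0.65, -0.62 and -0.44 in WT and -0.57, -0.67 and -0.71 in Yme1l-/-. The groups overlapped, and the mean went from -0.57 ± 0.113 to -0.65 ± 0.074 (SD, n = 3; exact permutation p = 0.4), a difference of -0.08.

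The count ratios of both paralogue pairs did not overlap between the genotypes, although neither passed the test. For Chchd3 to Chchd6 the ratio of counts was 6.96, 6.82 and 7.65 in WT and 4.82, 4.69 and 4.96 in Yme1l-/-, with every Yme1l-/- culture below every WT culture. The log2 ratio fell by 0.57, from 2.83 ± 0.089 to 2.27 ± 0.041 (SD, n = 3; exact permutation p = 0.1, adjusted over the 5 pairs 0.125). Chchd3 and Chchd6 lie on the same chromosome, whose median is the same for both. For Apoo to Apool, which share the X chromosome, the ratio of counts was 1.56, 1.53 and 1.80 in WT and 1.81, 1.85 and 2.07 in Yme1l-/-. The highest WT culture lay just under the lowest Yme1l-/- culture, and the log2 ratio went from 0.70 ± 0.128 to 0.93 ± 0.106 (SD, n = 3; exact permutation p = 0.1, adjusted 0.125).

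For Immt to Samm50, which encode the partners across the membranes, the log2 ratio went from 1.70 ± 0.066 in WT to 1.43 ± 0.039 in Yme1l-/- (SD, n = 3; exact permutation p = 0.1, adjusted 0.125), without overlap. These genes lie on chromosomes with medians of 0.34 and 0.59, and with chromosome medians removed their log2 fold changes were 0.19 for Immt and 0.21 for Samm50. For Immt to Stoml2 it went from 1.19 ± 0.080 to 1.95 ± 0.114 (SD, n = 3; exact permutation p = 0.1, adjusted 0.125). The chromosome medians of this pair are 0.34 and -0.10, and with these removed the log2 fold changes were 0.19 for Immt and -0.13 for Stoml2. The counts of Immt were at most 2.43 times those of Stoml2 in WT and at least 3.54 times in Yme1l-/-. For 4 of the 5 pairs the exact p was thus the smallest that the design allows. The share of other pairs of loci that reach it was not computed. Of single loci, 71.9% did not overlap between the genotypes in CPM.

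**Figure D4:**
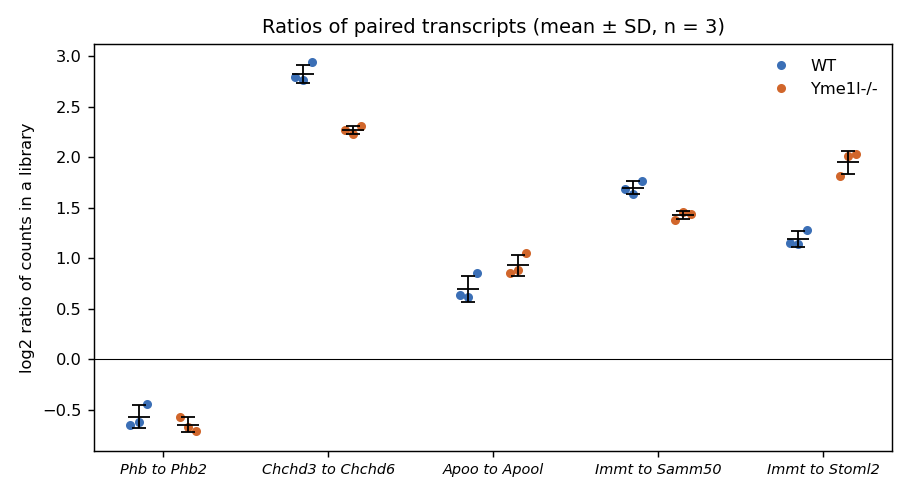
Points are the log2 ratio of the counts of paired genes in each library, with WT in blue, Yme1l-/- in orange, and the mean ± SD of 3 cultures in black. Phb to Phb2 overlaps between the genotypes, Chchd3 to Chchd6 goes from 2.83 to 2.27, and Immt to Stoml2 from 1.19 to 1.95.

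Levels were compared between genes per transcript length, with the authors' FPKM (fragments scaled to transcript length and library size), of which there is a single combined value per genotype and so no spread. In WT the prohibitins were highest, Phb2 with 249 and Phb with 174 FPKM, followed by Stoml2 with 154, Immt with 132 and Chchd3 with 101 FPKM. Samm50 (58.1), Dnajc11 (33.8), Apoo (22.1), Chchd6 (19.2) and Apool (7.93 FPKM) were lower. In Yme1l-/- the order began with Phb2 (329 FPKM) and Phb (244 FPKM), and Immt (186 FPKM) stood before Stoml2 (135 FPKM). Chchd3 (112) and Samm50 (102 FPKM) came next, then Chchd6 (32.3), Dnajc11 (32.2), Apoo (25.3) and Apool (8.23 FPKM). Within the paralogue pairs, Chchd3 was the more abundant partner of Chchd6, and Apoo that of Apool, in either genotype. Whether neighbours in this order differ beyond the spread between cultures cannot be told from the combined values. For Phb the FPKM rose more, from 174 to 244, than the counts did (1.22-fold), and the reason was not tested.

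Genes of the same structures that were not among the 10 are given from lists made with earlier results of these data known. Of 10 other MICOS and bridge genes, 5 were called higher and 1 lower by edgeR, with a median log2 fold change of 0.09. The higher genes were Tmem11 (0.30 ± 0.08, SE), which encodes an inner membrane protein found with MICOS, 2410015M20Rik, which encodes the subunit MIC13 (0.26 ± 0.07, SE), Mtx2 and Mtx3, which encode metaxins of the outer membrane (0.24 ± 0.05 and 0.24 ± 0.09, SE), and Armc1 (0.17 ± 0.04, SE). Minos1, which encodes MIC10, the subunit that bends the membrane at crista junctions, was at -0.04 ± 0.07 (SE) and not called. Slc25a46, which encodes an outer membrane protein that binds MICOS, was lower at -0.27 ± 0.05 (SE). Chchd10, counted as not called, had means of just 0.487 CPM in WT and 0.484 CPM in Yme1l-/-, so its value says little. With chromosome medians removed, Mtx2 (0.26) and Armc1 (0.29) were still called higher, and Tmem11 (-0.05), 2410015M20Rik (0.09), Mtx3 (0.16) and Slc25a46 (-0.06) were not called. The 2 genes for central MICOS subunits outside the list of 10 thus gave values of 0.26 and -0.04, where the 5 MICOS genes above ranged from 0.01 to 0.74.

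Of the partners of prohibitins and SLP2, 10 were tested (Afg3l1 and Spg7 were not analysed here), 4 higher and 2 lower, with a median of -0.03. Pisd was counted in a locus merged with Gm20671 and Prr14l, which was not called. Dnajc19, which encodes a J-domain protein that binds prohibitins, rose by 0.69 ± 0.08, and C1qbp, whose product binds mitochondrial RNA and ribosomes, by 0.63 ± 0.07 (log2 fold change ± SE). Parl, the third member of the complex of SLP2 and YME1L, went from 38.3 to 44.8 CPM, a log2 fold change of 0.23 ± 0.05 (SE, edgeR adjusted p 0.00178). It rose where Stoml2 and Yme1l1 fell, although Stoml2 (-0.13, edgeR adjusted p 0.079) was not called with chromosome medians removed. Pink1, whose kinase is cleaved by PARL, was at 0.45 ± 0.10 (SE). Dnajc15, a further J-domain gene, fell by 0.85 on the log2 scale, and Afg3l2, which encodes a subunit of the m-AAA protease that binds prohibitins, by 0.22 on the log2 scale. With chromosome medians removed, Dnajc19 was at 0.81, C1qbp at 0.27, Parl at 0.25 and Dnajc15 at -0.68, all still called, and Afg3l2 was at -0.01 and not called. Opa1 and Oma1, the gene for a stress-activated protease that cleaves OPA1, were at -0.11 ± 0.06 and -0.08 ± 0.10 (SE) and not called.

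Among the other genes of the SPFH family, 6 were tested, of which edgeR called 3 lower and did not call 3. Under upper-quartile scaling 1 was higher, and with chromosome medians removed 2 were higher and 3 lower. Stom, which encodes stomatin of the plasma membrane, went from 61.5 to 36.5 CPM, and Flot2, which encodes a flotillin, from 95.2 to 65.3 CPM, log2 fold changes of -0.75 ± 0.06 and -0.54 ± 0.04 (SE). Erlin1 of the endoplasmic reticulum was at -0.23 ± 0.05 (SE). Erlin2 and Stoml1 were at 0.03 and 0.06 and not called. With chromosome medians removed, Erlin2 (0.35) and Stoml1 (0.42) were called higher, where Phb (-0.07) and Phb2 (0.02) were not called. The family members were not tested against the prohibitins.

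The ATP synthase list was tested as 8 loci, most of them for subunits at the dimer interface and in the membrane, which bend cristae at their rims. It also held Atpif1 and Atp5o, the latter in a locus merged with Donson. Of the 8 loci 4 were lower and 4, with Atpif1 and Atp5o among them, were not called, and the median was -0.14. The number lower was 2 without WT replicate 1, Yme1l-/- replicate 2 or Yme1l-/- replicate 3 and under upper-quartile scaling, and 1 with chromosome medians removed. Atp5l (-0.36 ± 0.07, SE) and 2010107E04Rik (-0.42 ± 0.07, SE) were the lowest, and with chromosome medians removed they were at 0.00 and 0.01 and not called. Of 23 general mitochondrial genes (Cox4i1 was not analysed here), 9 were higher and 5 lower, with a median of 0.02. Among these, Tomm22 on chromosome 15, which encodes a receptor for protein import, rose by 0.91 ± 0.05, and Cs on chromosome 10, which encodes citrate synthase, by 0.53 ± 0.05 (log2 fold change ± SE). Vdac3, which encodes an outer membrane channel, was at -0.26 ± 0.05 (SE) and called lower. Uqcrc1, counted as not called, had means of just 0.751 CPM in WT and 0.753 CPM in Yme1l-/-, so its value says little. With chromosome medians removed, Tomm22 (0.31) and Cs (0.23) were still called higher, Vdac3 was at 0.05 and not called, and the 5 lower calls of this list were lost. The medians of the 5 lists lay between -0.14 and 0.09, beside 0.27 for the 10 scaffold genes. With chromosome medians removed they lay between -0.20 and 0.10, beside 0.11, and the general mitochondrial list, at 0.10, was then close to the scaffold genes. These differences were not tested, because the genes were chosen with results known.

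**Figure D5:**
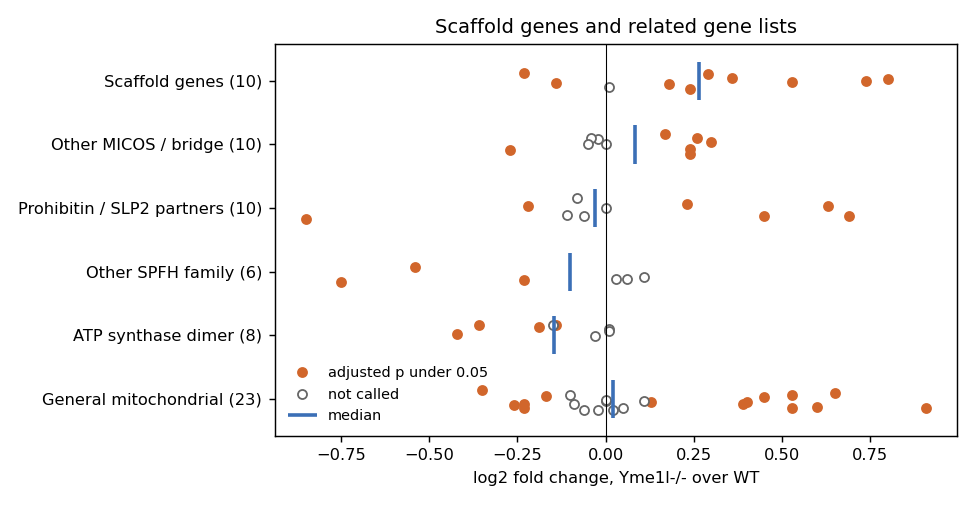
Each point is the log2 fold change of a tested locus (Yme1l-/- over WT), filled where the adjusted p was under 0.05, for the 10 scaffold genes and 5 related lists, with blue lines at the medians. The scaffold genes have a median of 0.27 and the ATP synthase list -0.14, and every list except the ATP synthase and SPFH lists holds calls in both directions.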

How the data were processed

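Poly(A) RNA of 6 MEF cultures (3 WT, 3 Yme1l-/-) was sequenced by the authors as stranded paired-end libraries. Reads were mapped to mm10 (Ensembl 91) with HISAT2 2.0.4 and transcripts were assembled with StringTie 1.3.3, per the labels and the study's methods. The deposited table holds raw fragment counts for 51499 loci. How fragments with several alignments were counted, and whether strand was used, is not given in the sources used here. The authors' Cuffdiff 2.2.1 table gave the FPKM values (1 combined value per genotype) and locus positions, and its fold changes, p-values and q-values were not used. Gene coordinates are from GENCODE M21 (the same build), which places noncoding, antisense or pseudogene models over Immt, Chchd3, Chchd6, Apoo, Samm50, Phb, Phb2 and Stoml2, whose fragments could not be told apart here. Depth was 33180867 to 49351107 fragments, and intervals cover the spread between cultures.

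Tests used edgeR 4.0.16 in R 4.3.3 on the raw counts (filterByExpr with minimum count 10, TMM factors, robust glmQLFit, glmQLFTest, two-sided), without covariates, adjusted over 13867 loci by Benjamini-Hochberg and called at an adjusted p under 0.05. CPM values use TMM-scaled library sizes. The SE is the log2 fold change divided by the root of the F statistic. No library repeated another, since within genotypes the chi-square per degree of freedom was 8.71 or more. The fit was tested on simulated data. Ratios were tested by exact permutation (scipy 1.17.1). The genes, lists and the chromosome alternative were chosen with earlier results of these data known. All 10 genes and Yme1l1 were to be named, and any gene of the lists could be. Alternatives were RLE or upper-quartile scaling, DESeq2 1.42.0, testing every locus with a fragment, requiring 10 fragments throughout, the replicate block, removal of chromosome medians, leaving out each culture and, for ratios, 10 added counts.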

Additional observations from a re-analysis of the deposited data

How the results depend on the processing

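The number of loci called ranged from 8513 to 10051 over 13 alternative settings. Yme1l1, Immt, Chchd6 and Samm50 kept direction and call in all 13, and Yme1l1 stayed between -2.29 and -2.21. Removing chromosome medians changed most. It left 5 of the 10 scaffold genes higher and 1 lower, with a median of 0.11, and put Chchd3 at -0.16 and Phb at -0.07 (both reversed), Phb2 at 0.02, Stoml2 at -0.13, Dnajc11 at -0.05 and Apool at 0.22. Under the same setting, the other MICOS and bridge list had 2 higher and 0 lower, the partner list 1 lower, the SPFH list 2 higher, the ATP synthase list 1 lower and the general mitochondrial list 0 lower. Under upper-quartile scaling (median of all loci 0.0552), Dnajc11 was at -0.08 and not called, which left 1 scaffold gene lower, and the SPFH list had 1 higher and the ATP synthase list 2 lower. Without the filter on low counts Phb, at 0.29, was not called (edgeR adjusted p 0.0623). The cause of these changes was not tested.

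Leaving out each culture in turn gave ranges of 0.20 to 0.29 for Apoo, -0.01 to 0.05 for Apool (with -0.0019, -0.01 and -0.002 without WT replicate 1, WT replicate 3 and Yme1l-/- replicate 1), 0.18 to 0.37 for Phb and 0.11 to 0.22 for Chchd3, and of 5 to 7 scaffold genes higher. It also gave 1 to 2 lower calls in the other MICOS and bridge list and 2 to 5 in the ATP synthase list (2 without WT replicate 1, Yme1l-/- replicate 2 or Yme1l-/- replicate 3). The log2 ratios kept their sign without any culture, with Phb to Phb2 between -0.12 and -0.01 and Chchd3 to Chchd6 between -0.60 and -0.51. The replicate numbers gave little sign of paired cultures, with correlations of the deviations within the numbers of 0.144, -0.0939 and 0.048. Cultures of unlike numbers were not compared, so pairing was not excluded. With the replicate block 9794 loci were called, and Phb, at 0.29, was not (edgeR adjusted p 0.0796), while the other 8 called scaffold genes kept their calls and Apool was again not called.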
